A study of Mus musculus with 12 samples.

Results

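The genes described here encode the machinery that shortens the poly(A) tail of mRNAs, removes their cap and degrades the remaining body. They are the rows of the count table whose mouse symbol begins with Cnot, Dcp, Edc, Exosc or Lsm followed by a digit, together with Pan2, Pan3, Parn, Noct, Pnrc1, Xrn1, Xrn2 and Upf1. This rule gave 46 of the 15391 genes in the table. By role, 15 are deadenylases or their partners, 6 take part in decapping, 13 are Lsm proteins, 9 are exosome subunits and 3 are exonucleases or surveillance factors. Exosc6 was not analysed here.

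RNA was taken from cultured sensory neurons of adult mouse dorsal root ganglia (DRG). All 4 groups had the genotype RPL22HA+/+;Advillin-Cre+ and were preconditioned, which means that the sciatic nerve had been injured before the neurons were cultured, in order to start a regenerative state. In such RiboTag mice, Cre switches on an HA-tagged form of the ribosomal protein Rpl22, and since Advillin-Cre is active mainly in sensory neurons, an HA antibody recovers neuronal ribosomes together with their mRNA. The groups were the HA immunoprecipitate (IP) of cultures infected with AAV-shLarp1, an adeno-associated virus that carries a short hairpin RNA against Larp1, the IP of cultures infected with a control virus, the input RNA of AAV-shLarp1 cultures and the input RNA of control cultures. The control virus is worded differently in the titles of the IP and the input samples, and both wordings were taken as the control. The labels name cultured neurons as the source, whereas the extraction text speaks of fresh ganglia.

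Degradation of most mRNAs begins at the poly(A) tail, which the Pan2-Pan3 complex and then the Ccr4-Not complex shorten. The cap is then taken off by Dcp2 with the help of Dcp1, the Edc proteins and a ring of Lsm proteins, after which Xrn1 digests the RNA from its 5′ end, while the exosome can digest it from the 3′ end. Larp1 binds the cap and the terminal oligopyrimidine (TOP) tract at the start of mRNAs that encode ribosomal proteins or translation factors, and in human cell lines it is known to keep the tails of these mRNAs from being shortened.

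Because Larp1 recognises the first bases of an mRNA, the annotated transcription starts of the members were examined. A TOP-like start was taken as a C at the first base followed by at least 4 pyrimidines, read on the gene's strand. RefSeq promoter windows of GRCm38.p6 were found for 38 members, and 2 of these genes, or 5.26%, had a TOP-like start in at least 1 window. The share was 3.09% over the 10340 genes of the count table with such a window (319 genes) and 21.7% over 60 ribosomal protein genes (13 genes). Most ribosomal protein genes thus did not meet the rule, although a TOP tract is described for their mRNAs. A gene that did not meet the rule on annotated starts may therefore still have a TOP start. The 2 members, Cnot10 and Cnot8, are shown first, followed by the 5 members whose IP levels were far below their input levels (described further on) and by Lsm7. Each line gives 15 bases before and 15 bases from the annotated start, 5′ to 3′, with the first 5 transcribed bases in capitals. The windows lie at chr9:114640186-114640215 on the minus strand (Cnot10), chr11:58104294-58104323 on the plus strand (Cnot8), chr5:147430141-147430170 on the plus strand (Pan3), chr3:51224432-51224461 on the plus strand (Noct), chr2:31670700-31670729 on the plus strand (Exosc2), chr7:25659138-25659167 on the plus strand (Exosc5), chr9:95954745-95954774 on the plus strand (Xrn1) and chr10:80855195-80855224 on the minus strand (Lsm7).
Cnot10: ccggaagtagcgtctCCCTTggccgctacg
Cnot8: acagaggctacggggCTCTCggtccccgga
Pan3: tacccacaaggccccGCGCCactcgcgcag
Noct: accagaccttctggcAGGACtgacgctcaa
Exosc2: gcggtgtagagctgcGCCTGcgcaagtcat
Exosc5: tagacgggcgcatgcGCAATaggtacgcgg
Xrn1: gctctatggtctggcGGACCttgtgttgtc
Lsm7: cggggcggcgcctgcGCAGAgcgacgtgag
Apart from Cnot10 and Cnot8, none of the starts shown is a C. Of the 4 annotated starts of Cnot8 only the TOP-like one is shown, and the other 3 begin with A or G. Of the 2 starts of Lsm7, 1 is shown. These letters describe the annotation and not the starts used in these neurons.

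Depth was 3126591 to 3177552 counts per column in IP and 564095 to 760140 in input. The 3 columns of a group are listed as separate samples, but their totals varied less than 3 random parts of 1 library in 4 of 4 groups, and their counts per gene varied by about the counting noise. For this reason each group is treated as 1 sample (n = 1), and the 95% intervals given below reflect counting error alone. P-values would not compare the conditions and are left out, apart from counts of calls by column tests in the last section. Column counts below are raw, and columns lying all above or all below those of another group are not agreement between replicates. Larp1 itself, the target of the hairpin, had 55, 49 and 45 counts in the shLarp1 IP columns, against 147, 141 and 154 in the control IP columns, a 3.30-fold lower level on the TMM scale. In input it had 3, 3 and 2 counts with shLarp1, against 5, 7 and 6 with the control. All 15 sensory neuron markers examined were detected in every group, and their summed level was 5455 and 5238 CPM (counts scaled to a common library size with TMM factors) in the shLarp1 and control IP, against 1196 and 2147 CPM in the shLarp1 and control input. Markers of Schwann cells and satellite glia, 10 of 11 of which were in the table, summed to 487 and 525 CPM in the shLarp1 and control IP and 594 and 569 CPM in the shLarp1 and control input. These are bulk samples, in which fewer cells of a type and less RNA per cell cannot be told apart.

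All 46 members were detected in IP, but most were barely sampled in input. Over the 3 columns of a group, the median member had 94.5 counts in the shLarp1 IP and 90 in the control IP, but 8 in the shLarp1 input and 9 in the control input. In the shLarp1 input 29 members had fewer than 20 counts and 4 had none, and in the control input 28 had fewer than 20 and 4 had none. Those with none were Upf1, Pan2, Dcp1b and Exosc3 in the shLarp1 input and Cnot9, Pan2, Edc4 and Lsm11 in the control input. Of the 46 members, 36 passed the filter on low counts. The 10 that did not pass were Pan2, Parn, Cnot6, Cnot6l and Cnot11 among the deadenylases, Dcp1a, Dcp1b and Edc4 in decapping, Lsm11 and Exosc3. Members that failed the filter have values below but no call.

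Member counts in input came mostly from 5 genes. Pan3, Noct, Exosc2, Exosc5 and Xrn1 together took 91.4% of all member counts in the shLarp1 input and 88.8% in the control input, whereas they took 22.2% and 24.8% of member counts in the shLarp1 and control IP. For each of them the log2 ratio of IP to input, averaged over the viruses, was below -2, and the 781 of 8773 genes tested that fell under this limit are called low-ratio genes below. Exosc2 lay 16th from the bottom of that ranking with a mean of -8.36, Xrn1 36th with -6.97, Pan3 105th with -5.03, Exosc5 222nd with -3.74 and Noct 627th with -2.47. The nearest member above the limit was Exosc9 with a mean of -1.82. All low-ratio genes together held 8.61% of the counts in the shLarp1 IP and 10.9% in the control IP, against 65.3% in the shLarp1 input and 56.2% in the control input.

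**Figure D1:**
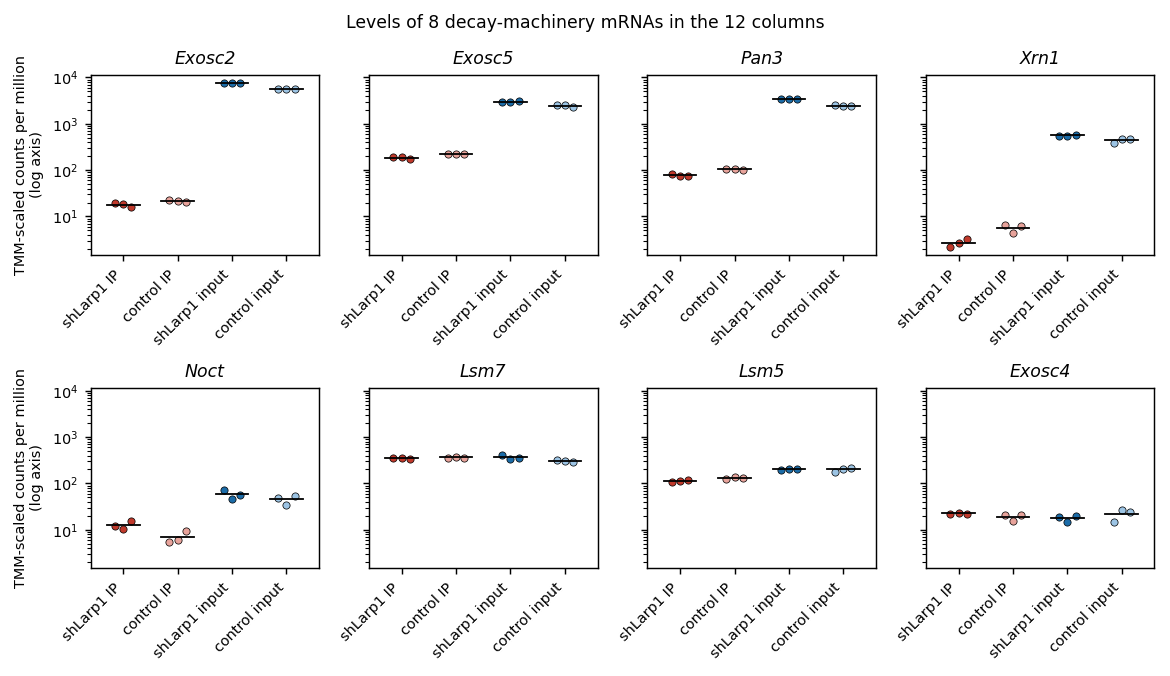
TMM-scaled CPM (log axis) of 8 members in each of the 12 columns, by group, with points for columns and a line for their mean. Exosc2, Exosc5, Pan3, Xrn1 and Noct sit far lower in IP than in input, for example 18.1 against 7610 CPM for Exosc2 with shLarp1, while Lsm7 and Exosc4 lie at similar heights in IP and input.

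The comparison of IP with input asks which members' mRNAs were over- or under-represented on the tagged ribosomes of sensory neurons relative to all RNA of the cultures. Calls of higher or lower required the whole interval to lie beyond 1.5-fold. With shLarp1, 1 of the 36 members tested was called higher, 9 were called lower and 26 did not pass. The background over the 8771 genes tested was 25.9% called higher and 13.1% called lower, so that members called higher (2.78%) were fewer and members called lower (25%) more than that background. With the control virus 1 member was called higher, 8 were called lower and 27 did not pass, beside a background of 23.0% higher and 12.5% lower over 8773 genes. These genes include 1185 with 0 counts in both inputs (zero-input genes), which cannot be called lower. No tested member is among them. Without zero-input and low-ratio genes, 5 of 31 members were called with shLarp1 and 4 with the control. Beside them, 24.2% and 19.2% of all genes were called in either direction. The median log2 ratio of the members was -0.22 with shLarp1 and -0.50 with the control, against 0.93 and 0.71 over all genes tested in those comparisons. Leaving out the 5 low-ratio members, the median of the other 31 was -0.14 with shLarp1 and -0.25 with the control, against 0.84 and 0.62 over all genes outside the low-ratio and zero-input classes. The split depended on the scaling: with total counts in place of TMM factors it was 11 higher and 4 lower with shLarp1 and 7 higher and 5 lower with the control, where 79.0% and 59.3% of all genes were called in either direction. With upper-quartile factors it was 0 higher and 14 lower with the control, where 32.9% of all genes were called. Total counts moved the median of all genes by 1.34 with shLarp1 and 0.98 with the control.

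Among the deadenylases, Pan3 and Noct were called lower in IP than in input with both viruses, and of the Cnot genes only Cnot9 was called, higher with the control virus. Pan3, the adaptor that brings the Pan2 nuclease to poly(A)-binding protein, had 397, 366 and 366 counts in the shLarp1 IP columns, against 1634, 1618 and 1623 in the shLarp1 input columns. With the control virus it had 460, 467 and 455 counts in the IP columns, against 1009, 1003 and 983 in the input columns. Although the IP columns are deeper, each of them held fewer Pan3 counts than any input column. The log2 ratio of IP to input was -5.50 (-5.60 to -5.41) with shLarp1, or 45.3-fold lower, and -4.55 (-4.64 to -4.46) with the control, or 23.5-fold lower. Pan2, the catalytic partner of Pan3, had 7 counts in the shLarp1 IP and 22 in the control IP, and none in either input. Because 0 counts in input allow up to 3, no direction can be given for Pan2, which did not pass the filter.

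Noct encodes nocturnin, a rhythmically expressed protein first described as a deadenylase and later found to remove a phosphate from NADP(H). It had 58, 51 and 76 counts in the shLarp1 IP columns, against 33, 22 and 26 in the shLarp1 input columns, and 24, 26 and 41 in the control IP columns, against 20, 14 and 22 in the control input columns. Scaled to depth, the log2 ratio was -2.20 (-2.58 to -1.80) with shLarp1 and -2.74 (-3.23 to -2.23) with the control. With total counts in place of TMM factors, the ratio with shLarp1 was -0.86 and no longer passed.

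Of the Cnot genes, Cnot9, an adaptor subunit that binds regulatory proteins, was called higher in IP with the control virus. There it had 70 counts in IP and 0 in input, a log2 ratio with a lower interval end of 0.77. When input is set to 3 counts it was 2.16-fold higher in IP. With shLarp1 it had 75 counts in IP and 5 in input, a log2 ratio of 0.52 (-0.77 to 2.18) that did not pass. The deadenylase Cnot7 had a log2 ratio of 0.83 (-0.34 to 2.31) with shLarp1 and 1.36 (-0.04 to 3.26) with the control. Cnot10, which with Cnot11 forms a module at one end of the Cnot1 scaffold, had -1.33 (-2.11 to -0.47) with shLarp1 and -0.64 (-1.49 to 0.32) with the control. Intervals of this width reflect the input, in which the Cnot genes had 0 to 17 counts per group.

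No decapping gene was called in IP against input. Dcp2, the decapping enzyme, had a log2 ratio of -0.22 (-1.22 to 0.96) with shLarp1 and -0.51 (-1.47 to 0.61) with the control. Edc3, which helps to assemble the decapping complex, had 98 counts in the shLarp1 IP against 4 in the shLarp1 input, and 87 in the control IP against 2 in the control input, which gave 1.22 (-0.18 to 3.13) and 2.01 (0.11 to 5.08). Pnrc1, a nuclear receptor coactivator that also binds the decapping complex, had 0.80 (-0.48 to 2.45) with shLarp1 and 1.02 (-0.59 to 3.34) with the control.

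The Lsm proteins form rings on RNA. The ring of Lsm1 to Lsm7 sits on deadenylated mRNA in the cytoplasm, and the ring of Lsm2 to Lsm8 sits on the U6 spliceosomal RNA in the nucleus. Lsm2 and Lsm8 were called lower in IP than in input with both viruses, and Lsm5 was called lower with shLarp1. Lsm8, the subunit that sets the nuclear ring apart, had 375, 370 and 380 counts in the shLarp1 IP columns, against 61, 74 and 76 in the shLarp1 input columns, and 345, 368 and 396 in the control IP columns, against 67, 83 and 75 in the control input columns. Its log2 ratio was -0.98 (-1.19 to -0.76) with shLarp1 and -1.13 (-1.34 to -0.92) with the control. Lsm1, the subunit that sets the cytoplasmic ring apart, had -0.19 (-0.81 to 0.48) with shLarp1 and -0.88 (-1.41 to -0.31) with the control, and was not called with either virus. Lsm2 had -1.07 (-1.50 to -0.62) with shLarp1 and -1.27 (-1.64 to -0.87) with the control, and Lsm5 had -0.84 (-1.02 to -0.65) and -0.63 (-0.82 to -0.43). With total counts in place of TMM factors the ratios with shLarp1 turned to 0.27 for Lsm2, 0.50 for Lsm5 and 0.37 for Lsm8. The ratios with the control became -0.29 for Lsm2 and -0.15 for Lsm8, and neither passed.

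The most deeply counted Lsm genes differed among themselves in IP against input. Lsm7 had 1761, 1739 and 1668 counts in the shLarp1 IP columns, against 193, 160 and 166 in the shLarp1 input columns, a log2 ratio of -0.08 (-0.21 to 0.06). With the control virus it had 1573, 1651 and 1591 counts in the IP columns, against 131, 121 and 120 in the input columns, a log2 ratio of 0.26 (0.11 to 0.41). Lsm6 had -0.64 (-0.79 to -0.48) with shLarp1 and -0.49 (-0.66 to -0.32) with the control, and Lsm3 had -0.65 (-0.91 to -0.39) and -0.66 (-0.92 to -0.38). The intervals of Lsm7 lay above those of Lsm3, Lsm6 and Lsm8 with both viruses, although all of them belong to the ring of Lsm2 to Lsm8. Lsm4 had the highest ratio among the ring subunits with shLarp1, 1.38 (0.52 to 2.40), from 11 input counts, and 0.22 (-0.49 to 1.03) with the control. Lsm14a and Lsm14b, which belong to cytoplasmic processing bodies, had 1.70 and 1.85 with shLarp1 and 1.37 and 1.05 with the control, from at most 6 input counts per group, and did not pass.

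The exosome subunits split into 3 called lower with both viruses, Exosc2, Exosc5 and Exosc9, and 5 that did not pass with either. Exosc2, a cap subunit through which RNA enters the exosome, had 96, 91 and 79 counts in the shLarp1 IP columns, against 3561, 3539 and 3564 in the shLarp1 input columns. With the control virus it had 101, 94 and 91 counts in the IP columns, against 2276, 2268 and 2283 in the input columns. It ranked 39th of the 15391 genes by input counts, which are not adjusted for transcript length. The log2 ratio of IP to input was -8.72 (-8.90 to -8.54) with shLarp1, or 421-fold lower, and -8.01 (-8.19 to -7.84) with the control, or 258-fold lower.

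Exosc5 and Exosc9 are subunits of the exosome ring. Exosc5 had 936, 930 and 850 counts in the shLarp1 IP columns, against 1384, 1392 and 1420 in the shLarp1 input columns, and 979, 982 and 976 in the control IP columns, against 1051, 1008 and 951 in the control input columns. The log2 ratio was -4.02 (-4.09 to -3.95) with shLarp1 and -3.47 (-3.55 to -3.40) with the control. Exosc9 had -2.05 (-2.53 to -1.54) with shLarp1 and -1.56 (-2.13 to -0.96) with the control. With total counts in place of TMM factors, Exosc9 had -0.70 with shLarp1 and -0.58 with the control, and passed with neither virus. Of the other subunits, Exosc4, also in the ring, had 0.33 (-0.26 to 0.98) with shLarp1 and -0.22 (-0.79 to 0.41) with the control, and the cap subunit Exosc1 had -0.23 (-0.90 to 0.52) and -0.68 (-1.33 to 0.04).

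Xrn1, the cytoplasmic nuclease that degrades decapped mRNA, was called lower in IP, and Xrn2, its nuclear counterpart that acts in transcription termination, did not pass. Xrn1 had 11, 13 and 16 counts in the shLarp1 IP columns, against 257, 260 and 267 in the shLarp1 input columns, and 29, 19 and 28 in the control IP columns, against 156, 193 and 196 in the control input columns. The log2 ratio of IP to input was -7.68 (-8.18 to -7.23) with shLarp1, or 206-fold lower, and -6.28 (-6.64 to -5.93) with the control, or 77.6-fold lower. Xrn2 had 78 counts in IP against 7 in input with shLarp1 and 90 against 4 with the control, which gave 0.09 (-1.02 to 1.45) and 1.06 (-0.35 to 2.96). Upf1, the helicase of nonsense-mediated decay, had 73 counts in the shLarp1 IP and 0 in the shLarp1 input. It was called higher in IP, with a lower interval end of 0.88 on the log2 scale. When input is set to 3 counts it was 2.32-fold higher in IP. With the control it had 53 counts in IP and 2 in input, a log2 ratio of 1.29 (-0.63 to 4.37) that did not pass.

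**Figure D2:**
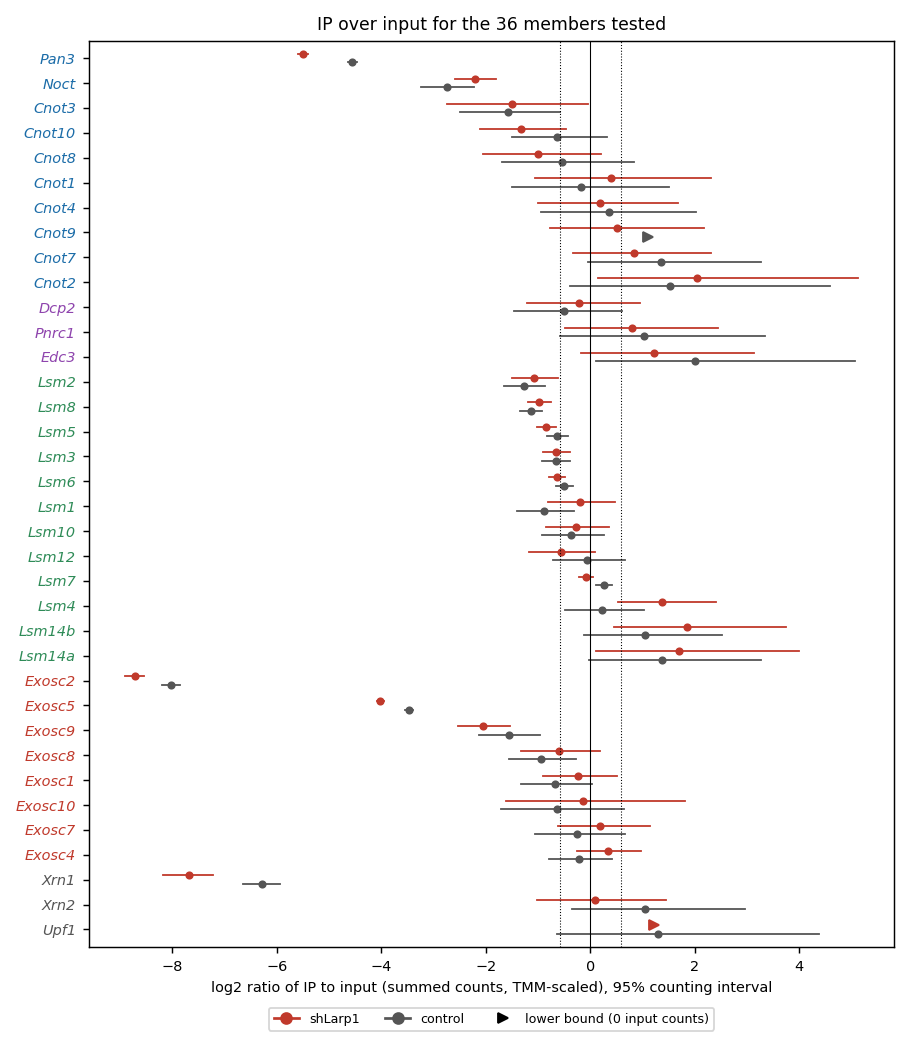
Log2 ratio of IP to input (x axis, TMM-scaled summed counts) for the 36 members tested, by role, with shLarp1 above control, 95% counting intervals as bars and dotted lines at 1.5-fold. Arrowheads mark lower bounds where input had 0 counts. Exosc2, Xrn1, Pan3, Exosc5 and Noct lie left of -2 with both viruses, and most others lie within 2 log2 units of 0.

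The input counts of Exosc2 and Pan3 varied between columns by less than the counting noise. The SD of the Exosc2 counts over the 3 columns was 13.7 in the shLarp1 input and 7.51 in the control input, where counting noise alone would give about 59.6 and 47.7. For Pan3 it was 8.19 in the shLarp1 input and 13.6 in the control input, against 40.3 and 31.6 for counting noise. Xrn1 went below counting noise in the shLarp1 input, with an SD of 5.13 against 16.2, and above it in the control input, with 22.3 against 13.5. Exosc5 did the same, with 18.9 against 37.4 in the shLarp1 input and 50.2 against 31.7 in the control input. Over the 103 pairs of a member and a group with at least 30 counts, 7 (6.80%) had columns that differed with a chi-square p under 0.05 and 4 had a p above 0.95 (a description of the columns, which are counted as 1 sample). Counting noise alone would place about as many pairs beyond each limit, so a few very even pairs are not unusual.

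Annotated neighbours were also recorded, since strand use in counting is not given in the sources used here. By RefSeq on GRCm38.p6, 21 of the 46 members overlap another annotated gene, 12 of them a protein-coding gene, and reads of overlapping genes cannot be told apart without strand. Exosc2 overlaps the long noncoding RNA Gm13427 and Xrn1 overlaps Gm16794, while Exosc5, Pan3 and Noct overlap no annotated gene. The protein-coding overlaps are those of Cnot1 with Setd6, Cnot3 with Leng1, Cnot6l with Gm52799, Cnot7 with Vps37a, Cnot8 with Gm12247, Cnot9 with Usp37, Dcp1a with Cacna1d, Dcp1b with Cacna1c, Exosc4 with Oplah, Exosc8 with Supt20, Exosc9 with Ccna2, and Upf1 with Cers1 and Gdf1. The paralogs Cnot6 and Cnot6l, Cnot7 and Cnot8, Dcp1a and Dcp1b, and Lsm14a and Lsm14b may share reads. Their sequence identity was not checked, and sharing of reads was not tested.

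The comparison of shLarp1 with control in IP asks how knockdown of Larp1 altered the mRNAs on the tagged ribosomes. No member was called: 0 of 36 were higher and 0 lower, where the background over 8766 genes was 0.719% called higher and 4.40% called lower. The largest log2 ratios in either direction were those of Noct, 0.87 (0.50 to 1.25), and Xrn1, -1.08 (-1.67 to -0.51), whose intervals excluded 0 but reached inside 1.5-fold. The median of the members was -0.09, against -0.08 over all genes tested. The interval lay wholly above 0 for 3 members (Noct, Lsm4 and Exosc4), wholly below 0 for 12, and held 0 for 21. Over all genes tested, 13.4% of intervals lay above 0 and 29.6% below. Total counts and upper-quartile factors each raise every ratio in IP by 0.13, so that the sign of smaller negative ratios depends on the scaling.

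Noct stood highest of all members in this comparison. Its 58, 51 and 76 counts in the shLarp1 IP columns were all above the 24, 26 and 41 counts in the control IP columns, a level of 12.6 against 6.88 CPM. Noct crossed the 1.5-fold limit when either of 2 columns was left out, with a log2 ratio of 0.99 without the second shLarp1 IP column and 1.15 without the third control IP column. It also crossed with total counts (1.00) and with upper-quartile factors (1.00).

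The other deadenylases had intervals that lay below 0 or held 0. Pan3 had 397, 366 and 366 counts with shLarp1, all below the 460, 467 and 455 with the control, a log2 ratio of -0.44 (-0.56 to -0.33). Its partner Pan2 had 4, 0 and 3 counts with shLarp1, all below the 5, 8 and 9 with the control. Pan2 did not pass the filter, and the ratio of its 7 and 22 counts was -1.80 (-3.27 to -0.53) on the log2 scale.

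Within the Ccr4-Not complex, the lowest ratio was that of Cnot3, a regulatory subunit that pairs with Cnot2. Cnot3 had 9, 5 and 12 counts in the shLarp1 IP columns, all below the 14, 13 and 20 in the control IP columns, which gave -1.01 (-1.76 to -0.29). Cnot2 had 24, 30 and 33 counts with shLarp1, overlapping the 15, 21 and 26 with the control, which gave 0.34 (-0.15 to 0.83). Cnot10 had 29, 23 and 19 counts with shLarp1, overlapping the 29, 37 and 24 with the control, which gave -0.49 (-0.96 to -0.03). The scaffold Cnot1 had 0.04 (-0.54 to 0.63), the deadenylase Cnot7 had -0.14 (-0.53 to 0.25), its paralog Cnot8 had -0.30 (-0.90 to 0.30), the ubiquitin ligase Cnot4 had -0.09 (-0.59 to 0.41) and Cnot9 had -0.05 (-0.54 to 0.44). Cnot10 and Cnot8, the 2 members with a TOP-like start, were not called, and neither was any other member, so this does not set them apart.

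The intervals of all decapping genes held 0 in IP. Dcp2 had 30, 23 and 28 counts with shLarp1 and 25, 26 and 25 with the control, a log2 ratio of -0.06 (-0.53 to 0.41), and Edc3 had 32, 26 and 40 with shLarp1 and 27, 36 and 24 with the control, a log2 ratio of 0.02 (-0.41 to 0.45). The columns overlapped for both genes. Pnrc1 had the highest ratio of the decapping genes, 0.31 (-0.16 to 0.79), and the scaffold Edc4, which did not pass the filter, the lowest among those with at least 50 IP counts, -0.31 (-1.02 to 0.39). A change of 1.5-fold lies inside the intervals of Pnrc1 and Edc4 and outside those of Dcp2 and Edc3.

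For the most deeply counted Lsm genes the intervals in IP, which reflect counting error alone, were narrow. Those of less counted ones were wider, such as that of Lsm14a, -0.69 to 0.11. Lsm7 had 1761, 1739 and 1668 counts with shLarp1, against 1573, 1651 and 1591 with the control, and Lsm6 had 943, 856 and 923 against 853, 853 and 792. Every shLarp1 column exceeded every control column in raw counts for both genes, but after TMM scaling, under which equal counts correspond to a log2 ratio of -0.15, the ratios were -0.05 (-0.11 to 0.01) for Lsm7 and -0.03 (-0.11 to 0.05) for Lsm6. Lsm3 had -0.03 (-0.16 to 0.11), Lsm8 had -0.13 (-0.25 to -0.01), and Lsm5 had -0.21 (-0.31 to -0.11). Lsm4 was the highest of those tested, with 105, 90 and 106 counts with shLarp1, all above the 78, 63 and 74 with the control, a log2 ratio of 0.33 (0.08 to 0.59). Lsm12 was the lowest of the Lsm genes tested, with 46, 68 and 63 counts with shLarp1, all below the 70, 78 and 70 with the control, a log2 ratio of -0.45 (-0.75 to -0.16). Lsm2 followed with -0.41 (-0.65 to -0.17). The ring subunits thus ranged from -0.41 to 0.33.

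Exosome genes ranged from -0.71 for Exosc10 to 0.24 for Exosc4 among those tested. Exosc4 had 108, 113 and 109 counts in the shLarp1 IP columns, all above the 92, 67 and 92 in the control IP columns, a log2 ratio of 0.24 (0.00 to 0.49). Exosc5 had 936, 930 and 850 counts with shLarp1, all below the 979, 982 and 976 with the control, a log2 ratio of -0.27 (-0.34 to -0.19). Exosc2 had 96, 91 and 79 counts with shLarp1, overlapping the 101, 94 and 91 with the control between 91 and 96, a log2 ratio of -0.26 (-0.50 to -0.01). Exosc10, the nuclease of the nuclear exosome, had 16, 11 and 11 counts with shLarp1, all below the 18, 21 and 17 with the control, a log2 ratio of -0.71 (-1.35 to -0.09). Exosc3, a cap subunit that did not pass the filter, had 11, 7 and 9 counts with shLarp1, all below the 15, 17 and 15 with the control, which gave -0.95 (-1.69 to -0.24). Exosc1 had 0.11 (-0.21 to 0.44) and Exosc9 -0.08 (-0.45 to 0.29).

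Xrn1 was the lowest of the tested members in IP, with 11, 13 and 16 counts in the shLarp1 columns, all below the 29, 19 and 28 in the control columns. It passed the 1.5-fold limit without the second control IP column, with a log2 ratio of -1.25. Xrn2 had 30, 24 and 24 counts with shLarp1, overlapping the 23, 23 and 44 with the control, a log2 ratio of -0.36 (-0.82 to 0.09). Upf1 had 24, 29 and 20 counts with shLarp1 and 18, 15 and 20 with the control, a log2 ratio of 0.31 (-0.22 to 0.85), with the columns touching at 20.

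**Figure D3:**
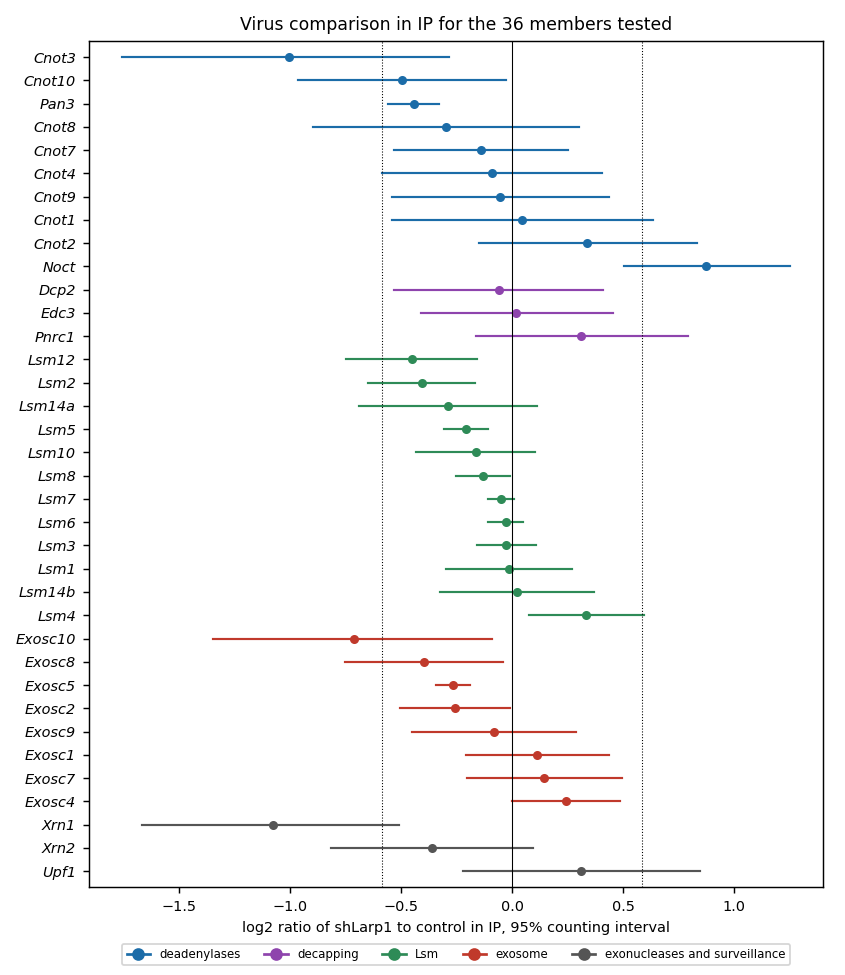
Log2 ratio of shLarp1 to control in IP (x axis, TMM-scaled summed counts) for the 36 members tested, coloured by role, with 95% counting intervals and dotted lines at 1.5-fold. No interval lies wholly beyond a dotted line. Noct at 0.87 and Xrn1 at -1.08 are the outermost points.

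In input, the comparison of shLarp1 with control again called no member, 0 of 36 higher and 0 lower, where the background over 7588 genes was 0.171% called higher and 1.01% called lower. Only 15 members had at least 50 input counts over both viruses. Of these, 9 had a ratio above 0 and 6 below, and the interval excluded 0 on the higher side for 5 (Pan3, Exosc2, Xrn1, Exosc5 and Lsm7) and on the lower side for 2 (Lsm2 and Lsm8). No other member tested had an input interval off 0, and these 7 of 36 stand beside 18.2% of all genes tested. All 5 low-ratio members lay above 0, between 0.28 and 0.51. Low-ratio genes as a class had a median of 0.43, against -0.20 for genes outside the low-ratio and zero-input classes. DESeq2 size factors move every input ratio by 0.21 and total counts by -0.23, so that the sign of smaller ratios depends on the scaling.

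Pan3 had 1634, 1618 and 1623 counts in the shLarp1 input columns, against 1009, 1003 and 983 in the control input columns, a log2 ratio of 0.51 (0.44 to 0.57). Exosc2 had 3561, 3539 and 3564 with shLarp1, against 2276, 2268 and 2283 with the control, which gave 0.45 (0.40 to 0.49). For both genes every shLarp1 column was far above every control column in raw counts. Part of this reflects the deeper shLarp1 input, which held 2279226 counts against 1693039 with the control. Under TMM scaling equal counts correspond to -0.20. As a share of all counts, Pan3 took 0.214% of the shLarp1 input and 0.177% of the control input, and Exosc2 0.468% and 0.403%. Pan3 and Exosc2 crossed the 1.5-fold limit on omission of any 1 of the 6 input columns, with 0.74 to 0.76 for Pan3 and 0.69 to 0.70 for Exosc2, and with DESeq2 size factors, with 0.72 and 0.66. These crossings followed the scaling: omission of an input column moved the median input ratio of all genes by 0.26 to 0.32. Xrn1 had 0.33 (0.17 to 0.49), Exosc5 had 0.28 (0.21 to 0.35) and Noct had 0.34 (-0.17 to 0.85).

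The Lsm genes had ratios on both sides of 0 in input. Lsm7 had 193, 160 and 166 counts with shLarp1, all above the 131, 121 and 120 with the control, a log2 ratio of 0.28 (0.09 to 0.48). Lsm2 had 14, 20 and 19 counts with shLarp1, touching the 27, 20 and 23 with the control at 20, a log2 ratio of -0.60 (-1.14 to -0.06). Lsm8 had -0.29 (-0.57 to -0.01), Lsm6 0.12 (-0.10 to 0.33), Lsm5 0.00 (-0.25 to 0.25) and Lsm3 -0.03 (-0.38 to 0.32). With fewer than 20 counts in an input group for most other members, a change of 1.5-fold was not detectable at this depth.

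Markers of several cell types in input also differed between the viruses. Those of Schwann cells and satellite glia overlapped over columns, with 594 CPM with shLarp1 (558 to 634) and 569 CPM with the control (547 to 596). The summed level of the 15 sensory neuron markers was 1196 CPM with shLarp1 (1187 to 1210 over columns) and 2147 CPM with the control (2097 to 2211). Fibroblast markers, 7 of 8 in the table, summed to 490 CPM with shLarp1 (448 to 546) and 386 CPM with the control (342 to 427), with Pdgfra at 0 in the shLarp1 input and Lum at 0 in the control input. Endothelial and mural markers, 6 of 6 in the table, summed to 89.9 CPM with shLarp1 (72.2 to 99.2) and 146 CPM with the control (140 to 149), with Pecam1 and Kdr at 0 in the shLarp1 input. Macrophage and leukocyte markers, 5 of 7 in the table, summed to 56.4 CPM with shLarp1 (49.6 to 66.4) and 95.7 CPM with the control (80.6 to 111). The part of these differences in the members' input ratios was not tested.

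The difference between the effect of the virus in IP and its effect in input was computed as an interaction, for which 0.5 counts were added to each group. Pan3 and Xrn1 were called lower and no member was called higher (2 and 0 of 36), beside a background of 5.58% lower and 1.39% higher over 7581 genes. The share of members called lower, 5.56%, was thus at the background. For Xrn1 the interaction was -1.40 (-1.97 to -0.82), from a log2 ratio of -1.08 in IP and 0.33 in input. For Pan3 it was -0.95 (-1.08 to -0.82), from -0.44 in IP and 0.51 in input. Exosc2, with -0.70 (-0.95 to -0.46), and Exosc5, with -0.55 (-0.65 to -0.45), lay in the same direction without passing. They passed with DESeq2 size factors, with -0.90 for Exosc2 and -0.75 for Exosc5. Exosc2 also passed without any 1 of the 6 input columns (-0.89 to -0.87), and Exosc5 without 5 of them (-0.76 to -0.71), but those omissions moved the median interaction of all genes by -0.20 to -0.15, about as much as DESeq2 size factors did (-0.20). With total counts Pan3 (-0.59) and Xrn1 (-1.03) no longer passed.

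The direction of Pan3, Xrn1, Exosc2 and Exosc5 was also that of low-ratio genes in general. The class had a median interaction of -0.90, against 0.16 over the 6807 genes outside the low-ratio and zero-input classes, and the 5 low-ratio members had a median of -0.70. Noct was the exception among them, with 0.54 (-0.07 to 1.14). Among the 31 members outside the class the median was 0.08 and none was called. Of these 31, the interval excluded 0 for Lsm4, with 1.14 (0.03 to 2.24), and for Lsm7, with -0.33 (-0.53 to -0.13). The value for Lsm4 rests on 11 and 17 counts in the shLarp1 and control input.

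**Figure D4:**
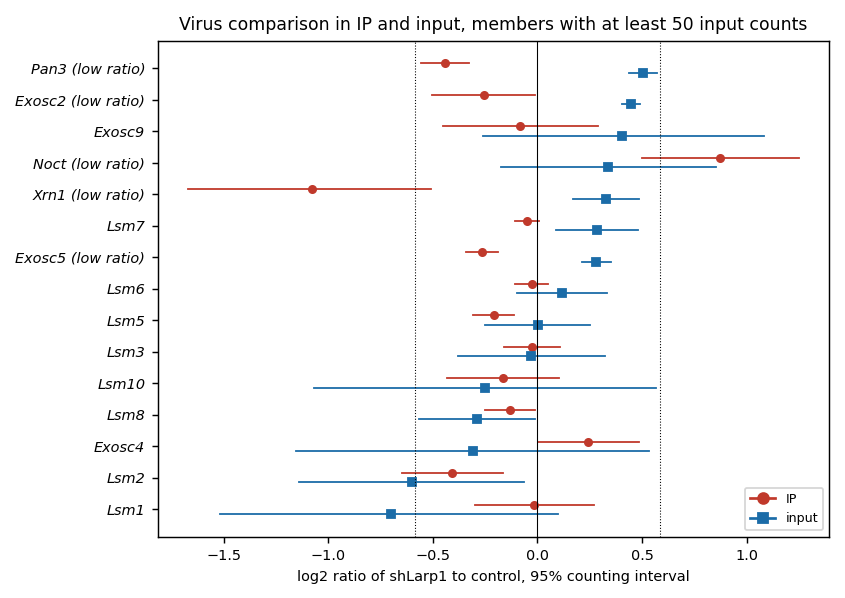
Log2 ratio of shLarp1 to control (x axis, TMM-scaled summed counts) in IP (circles) and input (squares) for the 15 members with at least 50 input counts, with 95% counting intervals and dotted lines at 1.5-fold. Pan3, Exosc2, Xrn1 and Exosc5 lie left of 0 in IP and right of 0 in input, whereas Noct lies right of 0 in both.

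Other genes of mRNA decay were taken from a list of 61 that are not members, such as exosome cofactors, tail-modifying enzymes and RNA-binding proteins that recruit deadenylases. Of these, 57 were matched in the table and 36 passed the filter. None was called with shLarp1 against control in IP (median 0.03) or in input (median -0.11). For the interaction 1 was called lower, beside 5.58% of all genes tested: Elavl1, with -0.98 (-1.20 to -0.75). Elavl1 encodes HuR, a protein that stabilises mRNAs with AU-rich elements. It is also a low-ratio gene, and that class had a median interaction of -0.90. Elavl1 had 429 counts in the shLarp1 IP and 637 in the control IP, and 989 in the shLarp1 input and 722 in the control input. In IP against input 2 were higher (Eif4e2 and Ago2) and 3 lower (Elavl1, Gigyf2 and Tut7) with shLarp1. With the control 0 were higher and the same 3 lower. The shares over all genes tested were 25.9% higher and 13.1% lower with shLarp1 and 23.0% and 12.5% with the control. Gigyf2 is a low-ratio gene as well. The genes given here from this list were named after their values had been seen.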

How the data were processed

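The deposited table holds whole-number read counts per gene that the authors made without scaling to depth. Among the tools and builds in the submitters' processing notes are Salmon, minimap2, mm39 and GRCm39. Their versions, the annotation and the strand setting were not given in the sources used here. Libraries came, per the labels' protocols, from a nanopore cDNA-PCR barcoding kit, and no molecular identifiers are named, so intervals cover counting error only. Symbols were matched by gene identifier: 13711 genes had one and 1680 did not.

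Columns of a group were compared with random parts of their sum by chi-square over genes with at least 30 counts. The result led to 1 sample per group, and the numbers of the columns did not pair samples. Counts were summed per group and scaled with TMM factors from edgeR 4.0.16 (R 4.3.3) over the 8773 genes kept by filterByExpr (minimum count 10). Log2 ratios carry exact Clopper-Pearson 95% intervals, and interaction intervals are a normal approximation after adding 0.5 counts. A call needs the whole interval beyond 1.5-fold. The step was tried on simulated counts for the virus comparisons in IP and in input and for the interaction, but not for IP over input. Those counts carried only the counting noise that the intervals assume. Ratios against 0 counts were set against 3 counts over the group.

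The alternatives were DESeq2 1.42.0 size factors, upper-quartile factors, total counts, no filter, limits of any fold and of 2-fold, leaving out each column, leaving out low-ratio genes, and tests that treat the columns as replicates with edgeR's quasi-likelihood test and DESeq2 (adjusted p under 0.05). The members and lists were chosen with earlier results of these data known. Named members are those called in any comparison, the 4 with most counts in each role, those with the highest and lowest ratio of each role in IP (at least 50 counts), and those with 0 counts in a fraction; further members were added after their values were seen. Promoter windows are RefSeq's (GRCm38.p6), which differs from the build of the counts, so their coordinates serve for sequence only.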

Additional observations from a re-analysis of the deposited data

Results flagged for a closer look

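For 2 members the effect of shLarp1 differed between IP and input, judged by the counting interval of the difference alone. For Xrn1 the difference was -1.40 (-1.97 to -0.82), with log2 ratios of shLarp1 to control of -1.08 in IP and 0.33 in input. For Pan3 it was -0.95 (-1.08 to -0.82), with -0.44 in IP and 0.51 in input. Their share of the 36 members tested (5.56%) was at the background of 5.58% of all genes called lower in this comparison. With total counts neither passed (-1.03 for Xrn1 and -0.59 for Pan3), and no replicate check exists for either.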

How the results depend on the processing

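Under the main settings 0 members were called in IP, 0 in input, 2 for the interaction, 10 in IP over input with shLarp1 and 9 with the control. With the columns as replicates, edgeR's quasi-likelihood test called 8, 4, 5, 17 and 17, the same test with the replicate block 8, 4, 5, 17 and 16, and DESeq2 5, 6, 6, 17 and 16, in that order of comparisons. Because the columns of a group are counted as 1 sample, these tests do not compare the conditions. The shares of all genes called were 27.7%, 8.88%, 11.1%, 61.2% and 55.4% with edgeR, 26.3%, 8.59%, 10.9%, 60.1% and 54.4% with the block, and 21.4%, 19.4%, 15.7%, 52.9% and 52.3% with DESeq2. The column numbers did not pair the samples: the correlation of deviations between same-numbered columns had a median of 0.06 (-0.25 to 0.29). An interval beyond any fold above 1 gave 15, 7, 6, 18 and 17 members, beside 43.0%, 18.2%, 21.6%, 62.7% and 57.6% of all genes. A 2-fold limit gave 0 for the interaction, 6 with shLarp1 and 5 with the control (1.57%, 27.8% and 25.3% of all genes), and leaving out low-ratio and zero-input genes gave 0, 5 and 4 (2.34%, 24.2% and 19.2%). The low-ratio class is set by the same IP to input ratio, and its 5 members were all called lower with both viruses. Pan3 and Xrn1, the members called for the interaction, are also in it. The fall in members called was thus fixed in advance. DESeq2 size factors gave 2 in input (2.85% of all genes) and 4 for the interaction (7.91%), upper-quartile factors 1 in IP (3.55%) and 14 in IP over input with the control (32.9%), and total counts 1 in IP (3.52%) and 0 for the interaction (7.11%). With total counts the median of the members turned to 1.12 in IP over input with shLarp1 and 0.48 with the control. Lsm2 (0.27), Lsm5 (0.50) and Lsm8 (0.37) reversed with shLarp1, and Noct (-0.86) and Exosc9 (-0.70) no longer passed. With the control, Exosc9 (-0.58), Lsm2 (-0.29) and Lsm8 (-0.15) no longer passed. The cause was not tested. Total counts also moved the median of all genes by 0.13 in IP, -0.23 in input and 0.36 for the interaction, and DESeq2 size factors by 0.21 in input and -0.20 for the interaction. Leaving out each column in turn gave 0 to 1 members called in IP, 0 to 2 in input, 2 to 4 for the interaction, 10 to 13 in IP over input with shLarp1 and 8 to 10 with the control. Over all omissions the members' median ran from -0.13 to -0.02 in IP, -0.01 to 0.30 in input and -0.30 to 0.04 for the interaction. In IP over input it ran from -0.52 to -0.13 with shLarp1 and -0.58 to -0.45 with the control. Input depth limits the input values: 29 members had fewer than 20 counts in the shLarp1 input and 28 in the control input.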
